A study of Mus musculus with 17 samples.

Results

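The genes described here are those at the far end of mouse chromosome 2, taken as every gene in the deposited count table whose smallest exon start lies at or beyond 160 Mb. There are 704 of them among 41096 genes in the table, with starts from 160029277 to 194093416 and a last end at 194107128 on the assembly C57BL_6NJ_v1. Total RNA was sequenced from 17 whole, flash-frozen hearts of mice aged 4 months on a C57BL/6 background. The hearts came from 4 wild-type (WT) females, 3 WT males, 5 females and 5 males of the genotype labelled bsg. The gene altered in bsg, the kind of allele and the C57BL/6 substrain are not stated in the labels, and the series' design text speaks of 3 to 4 replicates a group, fewer than the 5 in each bsg group. This end of the chromosome was singled out because genes that differ between bsg and WT lie close together there. The bsg against WT values below are therefore a description of the stretch and carry no test of it.

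Genes that lie next to each other on a chromosome are inherited together more often than distant ones, and some neighbours share regulatory elements or a promoter region. The far end of mouse chromosome 2 is known for a large cluster of KRAB zinc-finger genes, a family of DNA-binding repressors that arose by local duplication and whose members resemble each other closely. It also holds many ordinary multi-exon genes used by heart muscle and other tissues. The table pairs its gene IDs with no names, and 0 of its 41096 IDs matched the name tables used here. Which of the genes below belong to that cluster, what each of them does and the levels of heart marker genes were therefore not determined, and genes are given by place, strand and exon structure.

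Each library held 13886399 to 17554850 counted fragments, and between 351 and 389 of the 704 genes had a count in a library. The stretch took 1.504% to 1.64% of all counts in WT libraries, and 1.45% to 1.81% in bsg libraries. Of the 704 genes, 228 had no count in any library. Another 174 had counts, at most 178 over all libraries, but did not pass the low-count filter. The remaining 302 (42.9%) were tested, compared with 36.53% of the whole table. In 3 libraries, WT female replicate 2, bsg female replicate 2 and WT male replicate 2, some genes of the stretch stood far above the other hearts, and the values without these 3 libraries are given beside the counts. Other hearts stood apart at some genes too, such as WT male replicate 3 at 175.39 Mb and WT female replicate 3 at 186.34 Mb. These are whole hearts, so fewer cells of a type and less RNA per cell cannot be told apart. The titles of 12 libraries share a number with another library of their group (5 such numbers), and the labels do not say whether it marks an animal, a litter or something else. The design text calls the replicates biological, and p-values measure the spread between these samples, which is too small if libraries with a shared number are not independent.

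Over both sexes, 34 of the 302 tested genes (11.3%) differed between bsg and WT at an adjusted p under 0.05 in a fit across all 15013 tested genes, where the share was 4.26%. They are referred to as called genes. In bsg hearts, 13 of them were higher (2.14% of all tested genes were called in this direction) and 21 were lower (2.12%). The differences were mostly small. The median absolute log2 fold change was 0.46 among the 34 called genes and 0.33 among all called genes of the table, and it was 0.11 among the 302 tested genes and 0.09 among all tested genes. Of the 34, 23 differed by less than 1.5-fold. A difference of 2-fold or more was found in 8 called genes (2.65% of the tested genes, compared with 0.440% over the table), 4 in each direction, and 4 of these differed by 4-fold or more. The median signed log2 fold change of the 302 genes was -0.01. Without WT female replicate 2 and bsg female replicate 2 the count was 39 of 299 tested, with 15 higher and 24 lower, where 4.23% of all tested genes were called. Without WT male replicate 2 as well the count was 35 of 299, with 15 higher and 20 lower, where 3.55% of all tested genes were called.

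**Figure D1:**
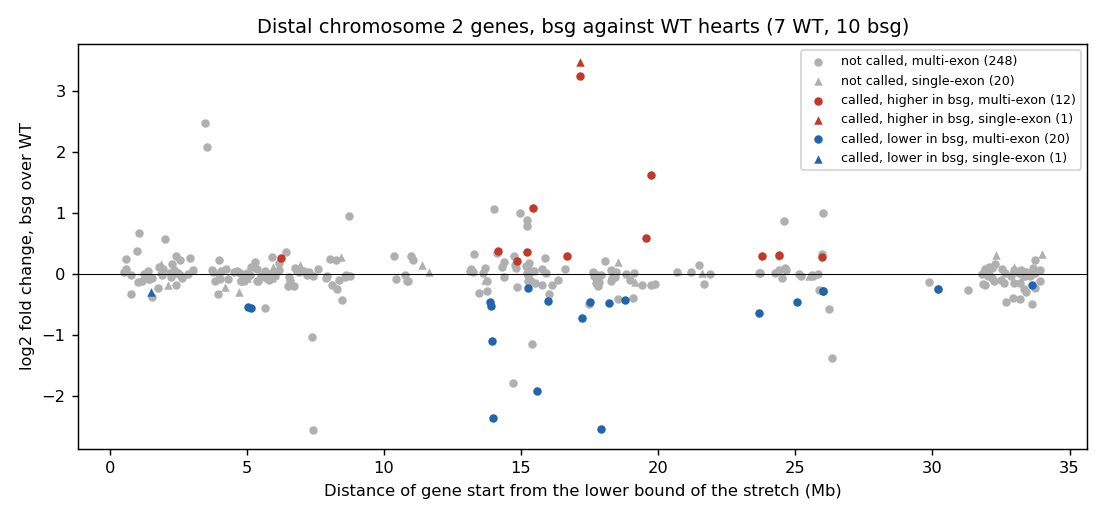
Log2 fold change of bsg over WT (y axis, both sexes) for the 302 tested genes against the distance of the gene start from the lower bound at 160 Mb (x axis, Mb). Circles are multi-exon and triangles single-exon genes, and colour marks called genes higher (red) or lower (blue) in bsg. The largest called differences in both directions lie between +13.9 and +19.8 Mb, and the grey points near +3.5 Mb are a pair of genes with very uneven libraries.

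The called genes were not spread evenly along the stretch. Between 160 and 173 Mb, 4 of 127 tested genes were called (3.15%), 1 higher and 3 lower, and none of the 4 differed by 2-fold. Between 173 and 180 Mb, 21 of 89 were called (23.6%), 9 higher and 12 lower, and the 8 genes that differed 2-fold or more lay here. Beyond 180 Mb, 9 of 86 were called (10.47%), 3 higher and 6 lower, with a largest absolute log2 fold change of 0.65. The bounds at 173 and 180 Mb are the whole Mb around the 8 genes with 2-fold differences, so they were set from the values. That all 8 lie within them is by construction, and the higher share of called genes there is partly so. The longest distance between the starts of successive called genes was 7.65 Mb, from 166.24 to 173.88 Mb, and 48 tested genes in between were not called. In windows of 2 Mb, the highest number was 7 called of 20 tested between 176 and 178 Mb, followed by 6 of 35 between 174 and 176 Mb, while 42 tested genes between 192 and 194 Mb held 1.

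**Figure D2:**
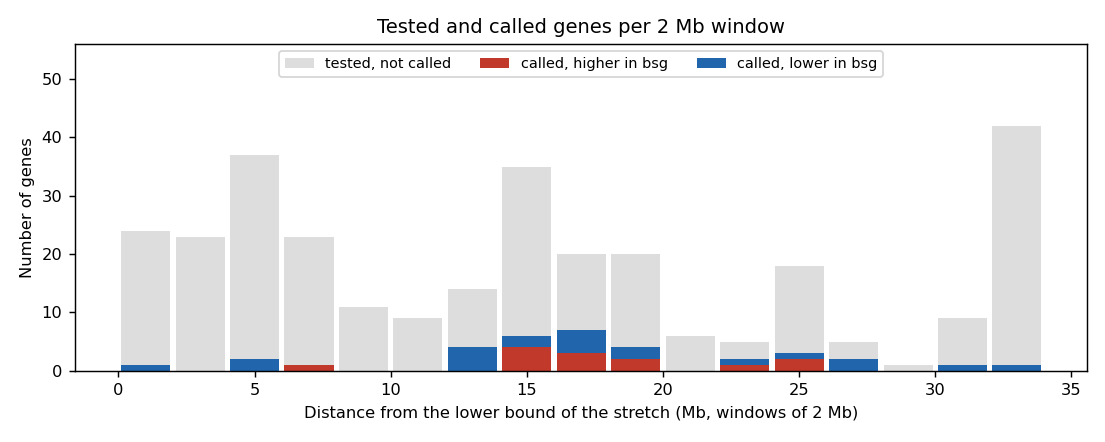
Number of genes (y axis) per 2 Mb window against distance from the lower bound of the stretch (x axis, Mb). Grey marks tested genes that were not called, red those called higher and blue those called lower in bsg. The 4 windows from +12 to +20 Mb hold 4, 6, 7 and 4 called genes, and several windows with many tested genes hold 2 or fewer.

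Higher and lower genes were interleaved. Of 33 successive pairs of called genes ordered by start, 19 had the same direction and the other 14 changed direction. The longest run in a single direction was 5 lower genes between 177.23 and 178.79 Mb. In 7 cases the next tested gene after a called one was called too, 6 of them with the same direction and 4 of them on the same strand. The gene pair that overlapped among called genes shared 7468 bp on opposite strands and is described below.

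The highest folds belonged to neighbours on the minus strand. MGP_C57BL6NJ_G0012235 (chromosome 2, 177159089 to 177159584) is a single-exon gene of 496 bp. Its lowest, median and highest levels were 0.884, 1.70 and 2.79 CPM (counts relative to the size of the library, scaled to a common total) in the 7 WT hearts and 17.1, 21.1 and 23.9 CPM in the 10 bsg hearts. Every bsg heart was thus far above every WT heart, and the means were 1.84 ± 0.621 (SD, n = 7) and 20.7 ± 2.38 CPM (SD, n = 10). The log2 fold change was 3.47 (standard error, SE, 0.16), an 11.04-fold higher level in bsg. In counts this was 14 to 47 fragments in a WT heart and 234 to 372 in a bsg heart, so the gene was low but not absent in WT.

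MGP_C57BL6NJ_G0006203 (177160917 to 177164406) begins 1333 bp further on, has 3 exons that sum to 604 bp and moved in the same direction. Its lowest, median and highest levels were 0.748, 1.23 and 1.55 CPM in WT and 8.47, 11.3 and 13.01 CPM in bsg. The genotypes did not overlap, and the log2 fold change of 3.23 (SE 0.15) corresponds to a 9.41-fold higher level. Relative to exon length, the single-exon gene had the higher level of the pair, at 26.1 CPM per kb over all hearts compared with 11.46 for its 3-exon neighbour. The gene after them at 177.23 Mb, also on the minus strand and with 42 exons, differed the other way. It stood at 13.8, 15.04 and 25.4 CPM (lowest, median, highest) in WT and 7.65, 10.3 and 15.1 CPM in bsg, with overlapping genotypes and a log2 fold change of -0.73 (SE 0.14).

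The other pair of genes at least 2-fold higher in bsg lay on the plus strand. The 2-exon gene at 179.74 Mb (179736688 to 179738653) stood at 3.03, 4.01 and 5.30 CPM in WT and 10.6, 13.1 and 14.9 CPM in bsg. The lowest bsg heart was well above the highest WT heart, and the log2 fold change was 1.62 (SE 0.10). The 29-exon gene at 175.42 Mb (175416014 to 175464065) was expressed at 1.69, 2.14 and 3.26 CPM in WT and at 4.20, 4.74 and 7.57 CPM in bsg. Its genotypes did not overlap either, the log2 fold change was 1.08 (SE 0.15), and 1 bsg female stood above the other bsg hearts.

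The largest difference downward was that of MGP_C57BL6NJ_G0015884 (177928599 to 177934512, plus strand, 5 exons), 764 kb beyond the pair of genes that were highest in fold. It stood at 5.06, 5.49 and 6.42 CPM in WT and at 0.665, 0.927 and 1.62 CPM in bsg. The lowest WT heart was above the highest bsg heart by a wide margin, the means were 5.54 ± 0.433 (SD, n = 7) and 0.951 ± 0.270 CPM (SD, n = 10), and the log2 fold change was -2.55 (SE 0.14). This is a 5.85-fold lower level in bsg, with 9 to 25 fragments still counted in each bsg heart.

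MGP_C57BL6NJ_G0003800 (173976328 to 173983795, minus strand, 2 exons) lies wholly within the 7-exon gene at 173.94 Mb (173943700 to 174017308), which is read from the opposite strand. The 2-exon gene stood at 2.00, 3.24 and 4.79 CPM in WT and 0.259, 0.475 and 1.41 CPM in bsg, a log2 fold change of -2.37 (SE 0.30). The gene around it was among the more abundant of the stretch, with 159, 177 and 197 CPM in WT and 70.9, 80.4 and 96.6 CPM in bsg, a log2 fold change of -1.10 (SE 0.06). Both were lower in bsg without overlap of the genotypes. Counting used strand to assign the fragments of this pair. How many fragments of the outer gene were counted on the wrong strand was not measured, and the inner gene was low beside it. Relative to exon length the outer gene stood at 30.3 CPM per kb and the inner one at 0.507.

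Next to that pair, the 11-exon gene at 173.91 Mb (minus strand) had the highest CPM of the called genes, at 473, 525 and 591 CPM in WT and 329, 377 and 411 CPM in bsg. It was lower in bsg without overlap, with a log2 fold change of -0.53 (SE 0.04). The 6-exon gene at 173.88 Mb (plus strand) was lower too, at -0.47 (SE 0.08), with overlapping hearts. Thus 4 genes within 173.88 to 173.98 Mb, alternating in strand, were all lower in bsg, by log2 fold changes from -0.47 to -2.37.

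The fourth gene at least 2-fold lower was the 12-exon gene at 175.59 Mb (175593063 to 175725317, minus strand). Its levels were 1.10, 2.83 and 3.94 CPM in WT and 0.323, 0.620 and 1.03 CPM in bsg, a log2 fold change of -1.92 (SE 0.27). The genotypes did not overlap, but the lowest WT heart and the highest bsg heart lay close together. Relative to their mean, WT hearts spread more widely here than at the other genes with 2-fold differences, with 1.10 to 3.94 CPM among the 4 females and 2.83 to 3.45 CPM among the 3 males.

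**Figure D3:**
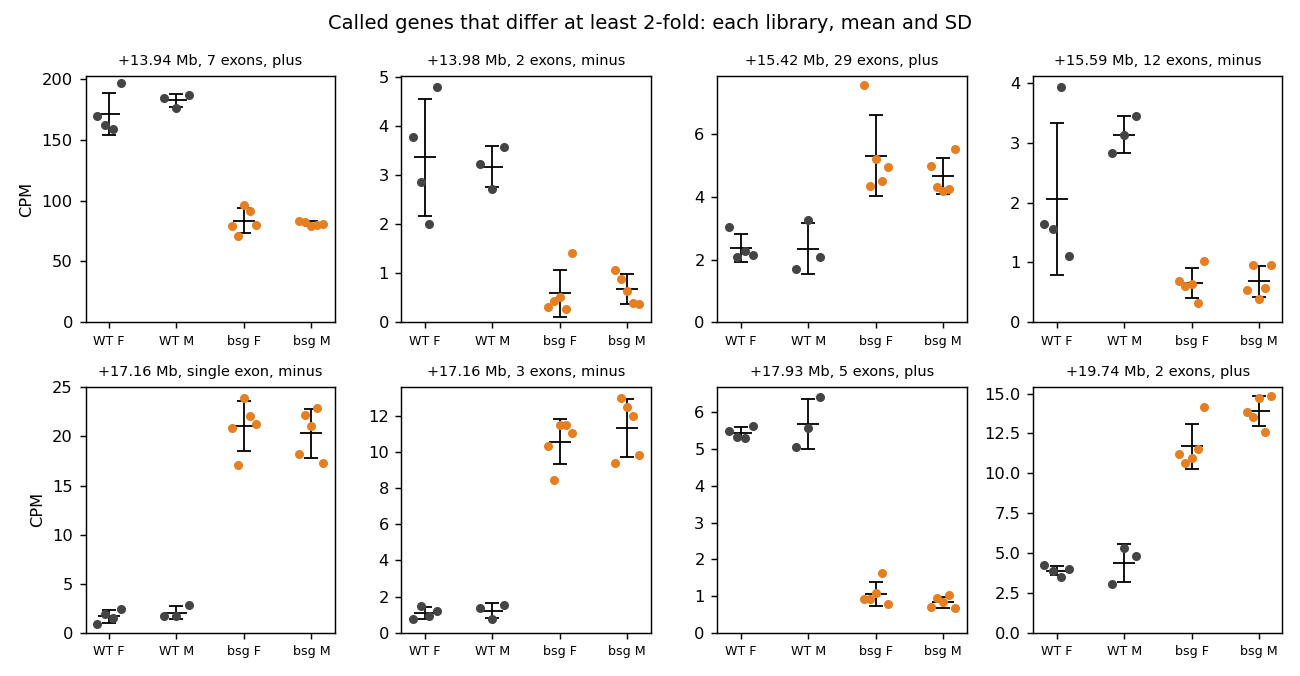
CPM (y axis, each panel with its own linear scale from 0) of the 8 called genes that differed at least 2-fold, in each heart of the 4 groups (F female, M male). Points are libraries, and bars give the mean and SD of each group. In all 8 panels every bsg point lies on 1 side of every WT point, by the narrowest margin for the gene at +15.59 Mb.

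The other called genes among the 12 highest and 12 lowest by fold change differed less. In the upward direction they were at 179.56 Mb with 36 exons (82.2 CPM in WT, 122 CPM in bsg, log2 fold change 0.59), 174.16, 175.22, 184.40, 183.78, 176.68, 185.97 and 166.24 Mb, with log2 fold changes from 0.25 to 0.37 for the last 7. All 8 have at least 4 exons. In the downward direction they were at 183.68 Mb (17.6 CPM in WT, 11.2 in bsg, log2 fold change -0.65), 165.15, 165.05, 178.20 and 185.05 Mb, at -0.47 to -0.55 for the last 4. The gene at 165.05 Mb had the least even libraries of these. It stood at 53.1, 77.4 and 130 CPM in WT and 42.7, 49.9 and 82.7 CPM in bsg, and its call was lost in 10 of 26 alternative fits.

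In 19 of the 302 tested genes (6.29%) every bsg heart lay above or below every WT heart, 8 above and 11 below, and all 19 were called. Over all tested genes the share was 0.779%, with 0.426% above and 0.353% below. Of the 19, 14 lay between 173 and 180 Mb, 1 before and 4 after, with the bounds set from the same hearts. The genotypes overlapped in the other 15 called genes, all of which differed by less than 2-fold.

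Each heart was also placed between the mean WT and mean bsg log2 level of each called gene. Of 578 placements (34 genes in 17 hearts), 35 were nearer to the other genotype. At the 8 genes with 2-fold differences this was so in 2 of 136, in WT female replicate 4 for the gene at 175.59 Mb and in bsg female replicate 5 for the gene at 173.98 Mb. No heart was nearer to the other genotype at more than 6 of the 34 genes, a number reached by WT female replicate 4. The median placement of a library ran from -0.10 to 0.08 in WT (0 is the WT mean) and from 0.92 to 1.04 in bsg (1 is the bsg mean). These genes were called on, and the scale was set by, the same hearts, so medians near 0 and 1 follow from the choice and are no check of the labels.

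**Figure D4:**
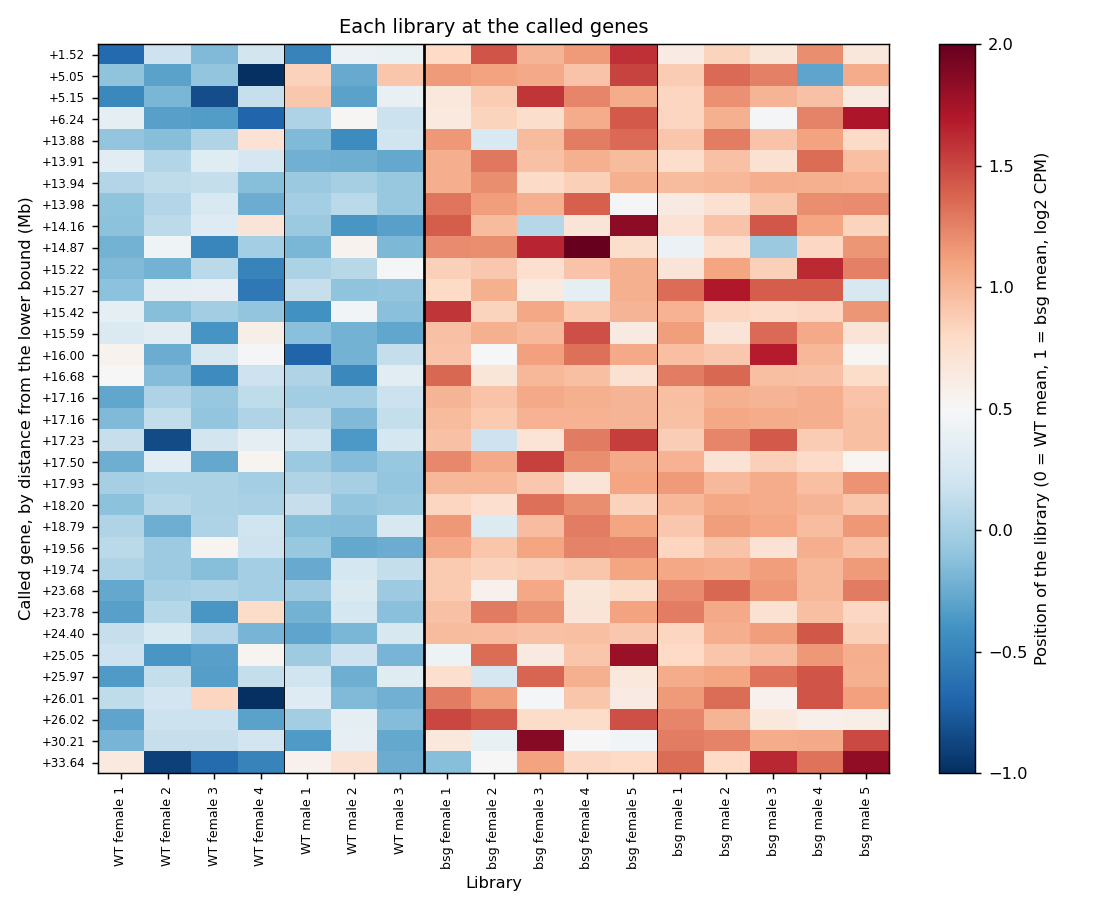
Placement of each library (x axis) at each of the 34 called genes (y axis, ordered by distance of the start from 160 Mb), where 0 is the WT mean and 1 the bsg mean of log2 CPM. Colours run from -1 to 2 and values beyond are drawn in the end colours. WT columns are mostly blue and bsg columns mostly red, and the 35 exceptions are scattered over genes and hearts.

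The 34 called genes had the same direction in males and females. They were called on the mean of the 2 differences, so equal signs follow largely from the choice and are no separate check. In males alone 16 of 302 tested genes were called, 6 higher and 10 lower (0.546% of all tested genes, with 0.293% higher and 0.253% lower), and in females alone 25 were called, 12 higher and 13 lower (1.8%, with 0.999% higher and 0.799% lower). With libraries that share a title number summed, the counts were 10 in males and 9 in females (4 higher, 5 lower), and lower calls in males numbered 6, 5 and 6 when WT male replicate 1, 2 or 3 was left out. DESeq2 called 27 in males, and without WT female replicate 3 the higher calls in females were 7. Shares of all tested genes called in each sex under these settings are not given here, so the counts cannot be set against the table. Over both sexes, summed libraries called 1.53% and DESeq2 6.25% of all tested genes, compared with 4.26% in the main fit. In the main fit the male and female calls had 15 genes in common, 93.8% of the male and 60% of the female calls. In neither sex alone were 8 of the 34 called. MGP_C57BL6NJ_G0012235 had a log2 fold change of 3.29 (SE 0.23) in males and 3.65 (SE 0.21) in females, and MGP_C57BL6NJ_G0015884 had -2.76 (SE 0.20) and -2.34 (SE 0.19). The least even between sexes was the gene at 165.05 Mb, with -0.18 (SE 0.20) in males and -0.91 (SE 0.19) in females, a difference of 0.73. Of all 302 tested genes, 201 (66.56%) had the same sign in both sexes, compared with 60.11% of all tested genes. The fold changes of the sexes had a Pearson correlation of 0.741 across the 302 genes, which share libraries and are not independent. No correlation over all tested genes is set beside it. The stretch was chosen on the mean of the 2 differences, so agreement of the sexes, in sign or size, is partly built in.

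**Figure D5:**
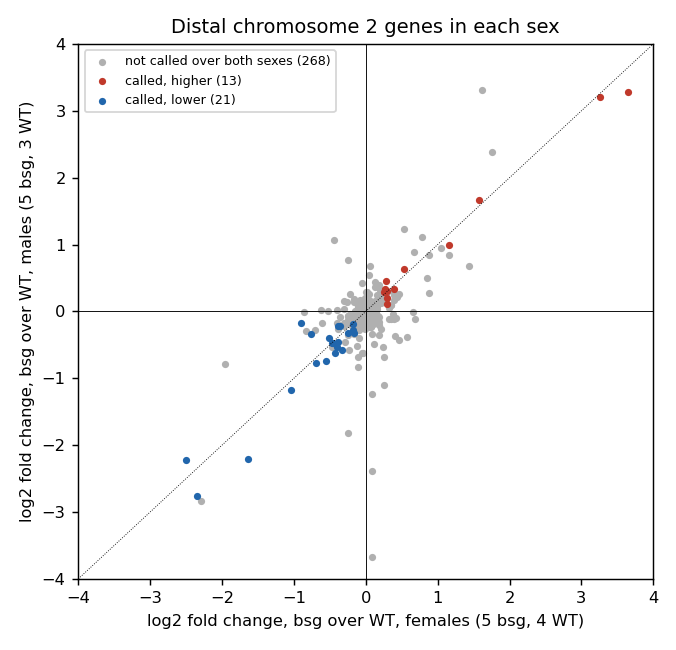
Log2 fold change of bsg over WT in males (y axis, 5 bsg and 3 WT hearts) against that in females (x axis, 5 bsg and 4 WT hearts) for the 302 tested genes. The dotted line marks equal values, and colour marks genes called over both sexes. All 34 coloured points lie in the quadrants of equal sign, while some grey points differ in sign or size.

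The interaction of sex and genotype, which the choice of the stretch did not use, called 0 of the 302 genes by edgeR's quasi-likelihood test. The smallest adjusted p was 0.888, and 19 genes (6.29%) had an unadjusted p under 0.05, compared with 5.17% of all tested genes. Over all 15013 tested genes the test called 0 as well (0%), with a smallest adjusted p of 0.671 by edgeR, so the count of 0 is not particular to the stretch. DESeq2 and limma-voom called 0 of the 302 too. The median SE of the interaction was 0.16 on the log2 scale, which limits the size of a sex difference that could be seen in a single gene. The smallest p downward belonged to the 2-exon gene at 170.43 Mb, whose means were 19.1 CPM in WT males, 15.05 in bsg males, 15.9 in WT females and 18.2 in bsg females (interaction -0.54, SE 0.19, adjusted p = 0.888 by edgeR). The smallest upward belonged to a single-exon gene at 192.31 Mb with under 1 CPM in every heart (1.504, SE 0.55, adjusted p = 0.888 by edgeR).

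The male to female difference over both genotypes, also not used in that choice, called 0 of the 302 genes by edgeR, where 0.32% of all tested genes were called. An unadjusted p under 0.05 was reached by 40 genes (13.25%), compared with 10.9% of all tested genes. DESeq2 called 4 of the 302 and limma-voom 0. The share of all tested genes that DESeq2 called for this difference is not given here, so its 4 calls cannot be set against the table. The smallest p was that of the 4-exon gene at 193.65 Mb, with means of 3.61 CPM in WT males, 4.29 in WT females, 3.32 in bsg males and 5.37 in bsg females. Its males were lower than its females in both genotypes on average, by a log2 difference of -0.47 (SE 0.11, adjusted p = 0.0851 by edgeR), which did not pass. The smallest p for a higher level in males was that of the 11-exon gene at 173.91 Mb, which was also called between genotypes (0.16, SE 0.04, adjusted p = 0.204 by edgeR).

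Single-exon and multi-exon genes were compared next, a gene being single-exon if its exon entries merged into 1 block. Of 165 single-exon genes in the stretch, 100 had no count in any library and 22 were tested. Among these 22, 2 were called (9.09%, compared with 1.62% of all tested single-exon genes). They were MGP_C57BL6NJ_G0012235, higher in bsg, and the gene at 161.52 Mb (161515582 to 161520034, minus strand), lower by a log2 fold change of -0.30 (SE 0.06) at 22.4 CPM in WT and 18.1 in bsg. Neither overlapped between genotypes. The latter has more than 1 entry in the table that adjoin, so with single entries required 1 of 18 was called. Of 539 multi-exon genes, 280 were tested and 32 called (11.4%, compared with 4.43% of all tested multi-exon genes), 12 higher and 20 lower. Tested single-exon genes were fewer and lower, with a median log2 CPM of 2.56 compared with 4.27 for multi-exon genes.

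The strands were alike in their counts. On the plus strand 19 of 162 tested genes were called (11.7%, all tested plus-strand genes 4.35%), 8 higher and 11 lower. On the minus strand 15 of 140 were called (10.7%, all tested minus-strand genes 4.16%), 5 higher and 10 lower. The 8 genes with 2-fold differences were split into 4 on each strand, and on each strand 2 were higher and 2 lower. No difference between the strands or between the exon classes was tested.

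Level per length was also set beside the calls. The 302 genes were split into 3 groups by mean CPM per kb of exon over all hearts. The lowest group (0.0671 to 2.27 CPM per kb) had 8 called of 101, the middle 13 of 100 and the highest (8.44 to 607 CPM per kb) 13 of 101. The genes with 2-fold differences fell 4, 1 and 3 into these groups. The share of all tested genes called at the same levels is not set beside these counts, so they are not read as a trait of the stretch. The called genes had a median of 6.74 CPM per kb, compared with 4.88 for the tested genes of the stretch and 4.49 for all tested genes.

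No gene of the stretch was near 0 in one genotype and clearly present in the other. With near 0 defined as at most 3 counts in every heart of one genotype and present as a median of at least 10 counts in the other, 0 of the 704 genes met it, and limits of 1 or 5 counts also gave 0. In the whole table, 2 genes met it in WT and 0 in bsg. In the stretch, 25 genes had no count in WT and some in bsg, and 21 the reverse, but none of these had more than 4 counts in all. Called genes with few counts in one genotype included MGP_C57BL6NJ_G0012235 and its neighbour in WT, with 14 to 47 and 11 to 26 counts a heart, and the genes at 173.98 and 175.59 Mb in bsg, with 4 to 22 and 5 to 16 counts.

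Of the 402 untested genes, 20 had a mean of at least 3 counts a heart in either genotype, and 1 of these differed by 4-fold or more. It is a 3-exon gene on the plus strand (177096827 to 177108448) with 3 to 7 counts in each WT heart and 0 to 2 in each bsg heart, means of 5.0 and 0.60. The genotypes did not overlap. Its end lies 50.6 kb before MGP_C57BL6NJ_G0012235 on the other strand, where bsg was higher. With so few counts its fold is not given here, and it was singled out after its values were seen.

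Large fold changes without a call also occurred. Of the 268 tested genes not called, 9 differed by 2-fold or more, up to an absolute log2 fold change of 2.57, and these were chosen after their values were seen. In 7 of the 9 the highest heart was WT female replicate 2, bsg female replicate 2 or WT male replicate 2. In the others it was WT male replicate 3 (35.01 CPM at 175.39 Mb) and WT female replicate 3 (15.95 CPM at 186.34 Mb). The extreme case was the 10-exon gene at 163.49 Mb, with 2438 CPM in bsg female replicate 2, 636 CPM in WT female replicate 2, 171 CPM in bsg male replicate 4 and 52.0 CPM in bsg male replicate 1, and at most 7.89 CPM in the other 13 hearts. Its neighbour at 163.53 Mb on the same strand was highest in the same hearts, at 108, 25.3, 6.75 and 2.06 CPM, with at most 0.742 CPM elsewhere. Both genotypes thus held hearts with high and with near-zero levels of this pair, and the log2 fold changes of 2.47 (SE 1.98) and 2.08 (SE 1.68) were small beside their errors.

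Further along, the 7-exon gene at 174.96 Mb had 68.4 CPM in bsg female replicate 2 and 24.7 CPM in WT female replicate 2, and at most 4.39 CPM elsewhere. The 12-exon gene at 174.02 Mb, which starts 426 bp beyond the end of the called gene at 173.94 Mb, had 20.1 and 6.43 CPM in these hearts. In the other hearts it had 0.568 to 0.839 CPM in 5 WT hearts, 2.04 CPM in WT male replicate 2 and 1.48 to 2.77 CPM in 9 bsg hearts. Without the 3 uneven libraries its genotypes did not overlap and it was called, at a log2 fold change of 1.54 (SE 0.19). The WT hearts that lay among the bsg hearts were WT female replicate 2 and WT male replicate 2, both left out there. The lack of overlap thus follows from leaving them out. Without only the 2 female libraries the genotypes overlapped (up to 2.04 CPM in WT, from 1.48 CPM in bsg). Of the 9 genes, 4 were called without the 2 uneven female libraries (at 174.02, 174.70, 175.39 and 186.34 Mb) and 2 without all 3 (at 174.02 and 175.39 Mb), and only that at 174.02 Mb was then without overlap. At the 34 called genes, bsg female replicate 2 was nearer WT in 5 placements, compared with 0 to 2 in each other bsg heart, and WT female replicate 2 was nearer bsg in 0 but had 25.4 CPM for the gene at 177.23 Mb, above all other hearts. What sets these libraries apart was not tested.

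At the bound itself no change of pattern was seen. The last 3 tested genes before 160 Mb, at 159.90, 159.93 and 159.99 Mb, had log2 fold changes of -0.13 (SE 0.11), -0.21 (SE 0.14) and -0.16 (SE 0.36). The first 3 beyond it, at 160.53, 160.58 and 160.61 Mb, had 0.02 (SE 0.03), 0.08 (SE 0.04) and 0.25 (SE 0.23). None of the 6 was called.

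The rest of chromosome 2 had 37 called of 895 tested genes (4.13%), with 3 genes (0.335%) whose genotypes did not overlap. Other stretches with many called genes were similar to the end of chromosome 2 in their share. On chromosome 4 between 30 and 60 Mb 27 of 175 were called (15.4%), on chromosome 5 between 60 and 110 Mb 29 of 177 (16.4%) and on chromosome 19 between 20 and 60 Mb 27 of 228 (11.8%). Non-overlapping genes made up 4.57%, 7.91% and 3.51% of these, compared with 6.29% at the end of chromosome 2. Called genes that differed 2-fold or more numbered 6 of 175, 6 of 177 and 7 of 228 there. At the end of chromosome 2 they were 8 of 302, and in the rest of that chromosome 1 of 895. These stretches were chosen from the same contrast, and no difference between them was tested.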

How the data were processed

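The authors deposited raw counts of fragments per gene for 17 hearts. Per the file headers they were made with featureCounts 1.6.2 from fragments with both ends aligned, at a minimum mapping quality of 10, setting 2 for strand, and the annotation of C57BL_6NJ_v1 from Ensembl 109. The submitters' processing notes also list Subread, DESeq2 and GRCm39, and the aligner is not given in the sources used here. A limit on mapping quality removes fragments of genes that have close copies, and near-identical copies and overlapping genes on the same strand remain uncertain. No column was left unused.

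Groups came from the genotype and sex labels. Genes were filtered with edgeR's filterByExpr (minimum count 10, minimum total 15), scaled by TMM and fitted with 4 group means over all 17 libraries by edgeR 4.0.16 (R 4.3.3). Quasi-likelihood tests were two-sided with Benjamini-Hochberg adjustment over all 15013 tested genes, and genes were called at an adjusted p under 0.05. The contrast over both sexes is the mean of the male and female log2 differences. The SE divides the size of the log2 fold change by the root of the F statistic. CPM uses TMM-scaled totals. The method was tested on simulated data. The lowest chi-square per degree of freedom over the 29 pairs of libraries within a group was 5.29, so no pair within a group agreed within sampling noise. Pairs across groups were not compared.

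The genes named are the 12 called genes with the largest fold change each way, those near 0 in a genotype, 3 tested genes each side of 160 Mb and the smallest p each way for interaction and sex. IDs are printed for the first 2 each way. The members and lists were chosen with earlier results of these data known. Alternatives were upper-quartile or RLE scaling, a filter of CPM above 1 in 3 or more libraries or none, limma-voom 3.58.1, DESeq2 1.42.0, sex as an additive term, libraries summed by title number, and libraries left out. Leaving out 3 libraries together was chosen after seeing the data. Sequences are not used here.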

Additional observations from a re-analysis of the deposited data

Results flagged for a closer look

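Among the 12 called genes each way, each of the 3 groups of 4 or 5 hearts was checked for a heart far from the rest of its group, by its gap to the nearest heart relative to the group's range. This picked out 7 of 72 sets, where chance gives about 1 in 20. For the gene at 179.74 Mb, bsg female replicate 5 stood at 14.1 CPM and the other bsg females at 10.6 to 11.51. For the gene at 175.42 Mb, bsg female replicate 1 stood at 7.57 CPM and the others of its group at 4.35 to 5.21. For MGP_C57BL6NJ_G0003800 at 173.98 Mb, bsg female replicate 5 had 1.41 CPM and the other bsg females 0.259 to 0.515.

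In WT females, replicate 2 had 25.4 CPM for the gene at 177.23 Mb, where the others had 13.8 to 15.3, and replicate 1 had 19.8 CPM for the gene at 183.68 Mb, where the others had 17.3 to 17.5. The gene at 165.05 Mb was picked out in both genotypes. WT female replicate 4 stood at 129.6 CPM beside 76.8 to 83.1 in the other WT females, and bsg male replicate 4 at 82.7 CPM beside 45.3 to 53.7 in the other bsg males.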

How the results depend on the processing

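The 34 calls over both sexes kept their direction under each of the 27 alternatives run. The count ran from 24 with libraries summed by title number to 45 by DESeq2 (18 higher, 27 lower). Among the called genes were 24 to 34 of the original ones. Over the whole table these 2 settings called 1.53% and 6.25% of the tested genes, compared with 4.26% in the main fit. Leaving out 1 library gave 31 to 39, where 2.06% to 4.61% of all tested genes were called. Male calls were 27 by DESeq2 (10 higher, 17 lower) and 10 with summed libraries (6 lower). Leaving out 1 library gave 10 (without WT male replicate 1) to 19 male calls, and 5 to 11 lower ones, with 6, 5 and 6 without WT male replicates 1, 2 and 3. Female calls were 9 with summed libraries (4 higher, 5 lower), and leaving out 1 library gave 7 (without WT female replicate 3) to 12 higher ones. DESeq2 called 4 genes between the sexes, the other alternatives 0. Shares of all tested genes called within a sex or between the sexes under these alternatives are not given here. Of single-exon genes, 1 was called without merging exon entries. The genes at 165.05 and 174.16 Mb lost their call in 10 and 3 of 26 alternatives, and those at 165.15, 166.24 and 183.78 Mb in 1, the summed libraries. The gene at 165.05 Mb was not called without WT female replicate 4 (log2 fold change -0.43, adjusted p = 0.0564 by edgeR), nor without 7 other single libraries, and its value ran from -0.64 to -0.43. The gene at 174.16 Mb was not called without WT male replicate 3 (0.37, adjusted p = 0.0566). No paired analysis was possible because the replicate numbers were given in accession order and pair no samples. Depth limited genes under about 1 CPM, where 1 fragment was worth 0.0570 to 0.0720 CPM.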
